A study of Homo sapiens with 12 samples.

Results

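Cells of the Sk-hep1 line kept in growth medium were compared between 24 and 12 hours of culture, over every gene measured. Sk-hep1 is an established human line that the labels trace to ascites of a liver adenocarcinoma and call endothelial in type. The arrays were taken by their titles: 3 at 12 h and 3 at 24 h, which are 6 of the 12 in the study. The growth medium (GM) was based on DMEM, a standard culture medium, and all cells had been grown beforehand in DMEM with fetal bovine serum, penicillin, streptomycin and L-glutamine. The other 6 arrays held cells incubated for the same 2 times, again with 3 arrays each, in a high-fat medium (HFM) whose base was DMEM/F12, a richer nutrient mixture. Which fat it held is not stated in the labels. No cell carried an engineered gene or a drug, so the only labelled difference within GM is time in the medium. The model is 1 cell line, and the labels do not say that replicates were separate cultures, so the p-values cover only how far these samples differed, and that spread may be technical. No sample from the start of the incubation was analysed here, and each change is therefore between the 2 times and not from a common starting point. Of 19775 genes with a probe set of their own, 13130 reached a log2 value of 4 on at least 3 arrays and were tested.

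A dividing cell passes from G1 through S phase, in which DNA is copied, to G2 and mitosis, and many of its transcripts rise and fall in that order. Transcription factors of the E2F family drive replication genes near the start of S phase. Genes for the spindle and the kinetochore (the protein plate by which chromosomes attach to it) are expressed mainly in G2 and mitosis. Promoter elements called CHR and CCAAT boxes take part in that timing. Fresh serum also induces short-lived immediate early and cytokine transcripts, and a culture uses up nutrients and growth factors as it stands.

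Array controls differed between the times. The mean over 14 probe sets for transcripts added before hybridisation was 9.81 to 9.88 (log2) on 4 arrays, namely the 3 GM arrays at 12 h and HFM replicate 1 at 12 h, and 9.41 to 9.65 on the other 8. Within GM the class of high or low added controls and the time therefore cannot be told apart. A fit with this class as a term can use only the HFM arrays at 12 h to estimate it. There replicate 1 is high and replicates 2 and 3 are low, so each class effect rests on how 1 array differed. A call can also be lost through the wider error of that fit alone. Counts from the fit are given for part of the lists only, so a list without them may differ as well. The 18S ribosomal RNA controls were 0.31 to 0.56 (log2) higher at 24 h those for 28S differed by -0.50 to 0.10, and the Alu repeat control was 0.20 higher. For ACTB the 3′ probe set exceeded the 5′ by 0.89 ± 0.03 (SD, n = 3) at 12 h and 1.07 ± 0.05 (n = 3) at 24 h, a difference whose two-sided exact permutation p was 0.1, the lowest value possible with 3 arrays a side. The same gap for GAPDH was 0.15 ± 0.02 and 0.16 ± 0.02 (exact permutation p = 0.6). The part of these controls in the results was not tested. Arrays of 1 time resembled each other closely, with a mean correlation over all genes of 0.998 at either time and 0.973 between the times. The GM arrays at 24 h correlated at 0.990 with the HFM arrays at 12 h and at 0.969 with those at 24 h. Between the 12 h arrays of GM and HFM the mean correlation was 0.980.

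Few endothelial markers were detected. Of 14, 8 stayed under log2 4 on all GM arrays, among them the defining CDH5 (VE-cadherin), VWF (von Willebrand factor), KDR (a VEGF receptor) and TIE1. The other 6 were tested and 5 fell from 12 to 24 h: the nitric oxide synthase NOS3 by 0.79, EGFL7 by 0.72, the guidance receptor ROBO4 by 0.53, ICAM2 by 0.50 and ESAM by 0.32 on the log2 scale. PECAM1 was 4.36, 4.56 and 4.44 at 12 h and 4.12, 4.11 and 4.35 at 24 h (adjusted p = 0.099). With the control class as a term NOS3, EGFL7 and ESAM were no longer called and PECAM1 was called lower (-0.69, adjusted p = 0.011). All 6 tested epithelial markers fell, led by KRT19 (log2 change -0.82), KRT7 (-0.75), ELF3 (-0.66) and KRT8 (-0.55), while EPCAM and CDH1 stayed under log2 4. With the class term 4 of these 6 were called lower. Of the 5 hepatocyte markers tested, AFP (-0.64), SERPINA1 (-0.61) and TTR (-0.38) fell and CYP3A4 rose (0.39), and albumin was under log2 4. COL1A1 (-0.62), THY1 (-0.53) and FN1 (-0.41) fell among 7 mesenchymal markers, and THY1 and FN1 lost the call with the class term. Of the 3 leukocyte markers tested, CORO1A (-1.05) and CD14 (-0.97) fell, and PTPRC, which marks all leukocytes, was under log2 4.

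From 12 to 24 h in GM, rises outnumbered falls in the lists of mitosis, selected long noncoding RNAs, zinc fingers, splicing and mRNA decay. Falls outnumbered rises in those of DNA replication, NF-kappaB signalling, immediate early transcription, HLA class I, lipid storage and the mitochondrion. Of 13130 genes tested, 9182 (69.9%) passed an adjusted p of 0.05 in limma (such genes are said to have changed): 3860 (29.4%) were higher at 24 h and 5322 (40.5%) lower. Counts of list members below are to be read against these 2 shares. The arrays of the 2 times did not overlap for 78.9% of genes. The changes were many and mostly small. The median change was 0.52 (log2) among the genes that rose, -0.44 among those that fell and -0.12 over all genes, and the full range ran from -1.72 to 2.65. At least 2-fold changes leaned the other way from the calls as a whole, with 506 genes (3.85%) higher and 55 (0.419%) lower. With the control class as a term 7389 genes were called, 3903 higher and 3486 lower, so that 52.8% of calls were rises in place of 42.0%. Of 4806 changed genes with a further tested probe set, 3621 had another that changed the same way and 312 had another that changed the opposite way.

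**Figure D1:**
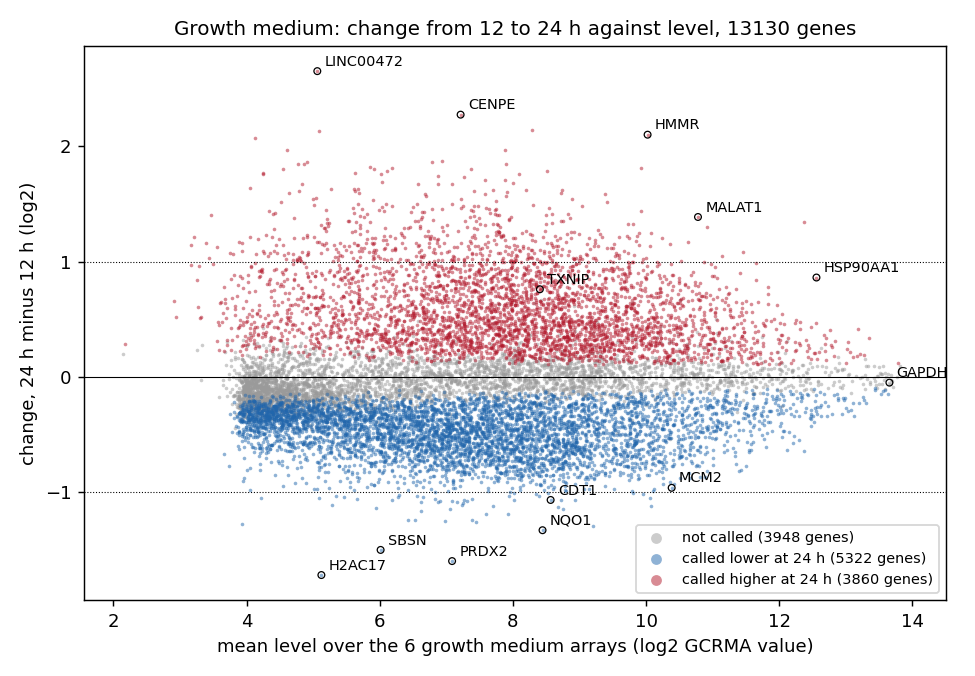
Change from 12 to 24 h in growth medium (y axis, log2 of 24 h over 12 h) against the mean level over the 6 arrays (x axis, log2 GCRMA value), 1 point per gene; red and blue points passed an adjusted p of 0.05 and dotted lines mark 2-fold. The rises reach 2.65 and the falls -1.72, and far more red than blue points lie beyond 2-fold (506 against 55).

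The largest rises included many genes of the spindle and its motors. LINC00472, a long noncoding RNA, was at 3.68, 3.76 and 3.77 at 12 h and at 6.22, 6.42 and 6.52 at 24 h. All 3 arrays at 12 h lay below the log2 4 used as the filter on low values, so the difference of 2.65 on the deposited scale is not given as a fold. CENPE, the kinesin motor of the kinetochore, read 5.97, 6.08 and 6.18 at 12 h and 8.35, 8.40 and 8.30 at 24 h (change 2.27 ± 0.07 SE, 4.83-fold, adjusted p = 1.3e-09). SGO2, the shugoshin that protects cohesion at the centromere, went from 7.28, 7.24 and 7.13 to 9.28, 9.34 and 9.45 (change 2.14 ± 0.07, 4.40-fold). HMMR, a hyaluronan-binding protein that also organises the spindle, went from 8.94, 8.93 and 9.05 to 11.04, 11.06 and 11.12 (change 2.10 ± 0.06, 4.29-fold). Arrays that do not overlap between the times were a condition for naming the largest changes, and 78.9% of all genes met it.

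The other 11 of the 15 largest rises lay between 1.78 and 2.13. They held CCDC150 (2.13), the mitotic kinesins KIF20B (1.97) and KIF18A (1.85), the spindle pole protein ASPM (1.81), and the ubiquitin ligase G2E3 (1.80). CEP290 (1.86), of the base of the cilium, and IFT74 (1.78), of transport within it, rose as well, with MNS1 (1.82), the autophagy protein VMP1 (1.81), the golgin GOLGA8A (1.87) and the zinc finger gene ZNF107 (1.80). The probe sets of GOLGA8A and ZNF107 are of the type that can bind related transcripts, and a second probe set of ZNF107 was not called. For VMP1 no further tested probe set was available for comparison.

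The largest falls were smaller and of more varied function. PRDX2, a peroxiredoxin that removes hydrogen peroxide, was at 7.90, 7.86 and 7.90 at 12 h and 6.34, 6.29 and 6.24 at 24 h (change -1.60 ± 0.08, 3.02-fold lower, adjusted p = 2.1e-08). Of its 3 further probe sets 2 fell and 1 rose. NQO1, a quinone reductase and a standard target of the antioxidant factor NRF2, went from 9.14, 9.05 and 9.14 to 7.77, 7.81 and 7.76 (change -1.33 ± 0.06, 2.51-fold lower), and its 2 further probe sets fell too. The secreted epidermal protein SBSN went from 6.77, 6.76 and 6.75 to 5.36, 5.18 and 5.25 (change -1.50 ± 0.10). The calcium-binding proteins S100A3 (-1.25), S100A2 (-1.25) and S100A4 (-1.24), whose genes lie together on chromosome 1, fell by like amounts. The remaining large falls were RBM14 (-1.29), the RNase P RNA RPPH1 (-1.24), the secreted chaperone clusterin (CLU, -1.24), the inositol phosphatase IMPA2 (-1.19), the uridine phosphorylase UPP1 (-1.19), APOL6 (-1.16), LRRC45 (-1.14), MCRIP1 (-1.14) and the hair keratin KRT33B (-1.13). The fall of RBM14 rests on 1 probe set, and the gene's other probe set was not called.

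Replication genes fell and mitotic genes rose. In bulk RNA a smaller share of cells in a phase and less RNA per cell cannot be told apart. Of 41 S phase and DNA replication genes, 26 fell, 7 rose and 8 were not called, with a median change of -0.40 against -0.12 over all genes. Of 38 mitosis genes, 26 rose, 2 fell and 10 were not called, with a median of 0.59. Falls thus took 63.4% of the replication genes against 40.5% of all genes, and rises 68.4% of the mitosis genes against 29.4%. With the class term the counts were 21 lower and 6 higher for replication, and 28 higher and 1 lower for mitosis. The mitosis falls were also 1 without GM replicate 3 at either time. They were 3 after centring each array, and 5 under quantile normalisation or with only the 6 GM arrays in the fit.

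The licensing factor CDT1, which loads the replicative helicase onto origins, fell from 9.07, 9.17 and 9.06 to 8.06, 7.99 and 8.06 (change -1.07 ± 0.05, 2.09-fold lower, adjusted p = 2.4e-08). MCM5, a subunit of that helicase, read 10.56, 10.60 and 10.62 at 12 h and 9.70, 9.61 and 9.51 at 24 h (change -0.99 ± 0.08). MCM2, of the same ring, read 10.86, 10.84 and 10.90, then 9.96, 9.89 and 9.86 (change -0.96 ± 0.05). No array at 24 h reached the 12 h values of these 3 genes. All 6 ring subunits, MCM2 to MCM7, fell, by 0.15 to 0.99. POLD1, the catalytic subunit of DNA polymerase delta, fell by 0.89, and 3 of 4 subunits of the GINS complex, which works with the helicase, fell. The list was not uniform. PCNA, the sliding clamp of the polymerase, read 12.01, 12.00 and 11.99 at 12 h and 11.98, 12.07 and 12.12 at 24 h (change 0.06 ± 0.11, adjusted p = 0.66), with overlapping arrays, but was called lower with the class term (-0.45, adjusted p = 0.00051). Of the 5 subunits of replication factor C, the clamp loader, 3 rose and 2 fell; this and the other complexes were picked out after the values were seen.

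Kinetochore and spindle genes made up the top of the mitosis list. ASPM, which focuses spindle poles, read 9.03, 9.01 and 9.0 at 12 h and 10.81, 10.84 and 10.81 at 24 h (change 1.81 ± 0.05, 3.50-fold, adjusted p = 1.1e-09). The kinesin KIF14, needed for cytokinesis, went from 7.73, 7.53 and 7.62 to 9.37, 9.40 and 9.46 (change 1.78 ± 0.09). Of 8 kinetochore and checkpoint genes, 6 rose and none fell, with a median of 1.02; the group was picked out after the values were seen. Cyclin B1 (CCNB1), which drives entry into mitosis, read 11.49, 11.55 and 11.50 at 12 h and 11.78, 11.83 and 11.86 at 24 h, a smaller change of 0.31 ± 0.05. MKI67, the Ki-67 antigen of cycling cells, read 8.73, 8.70 and 8.70, then 9.0, 9.01 and 8.95 (change 0.27 ± 0.08, adjusted p = 0.009). The times did not overlap for either gene. Cyclins A2, B1 and B2 and CDK1 all rose, by 0.31 to 0.86. The late mitotic regulators PLK1, AURKB, BIRC5, CDC20 and UBE2C, singled out after their values were seen, differed from these: 2 fell, 3 were not called, and their changes ran from -0.28 to 0.06. The falls were those of AURKB (-0.27) and BIRC5 (-0.23), and the class term took them to 0.021 and 0.056. With that term CDC20 was called higher (0.34, adjusted p = 0.0043) and PLK1 moved from -0.28 to 0.046, called in neither fit.

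**Figure D2:**
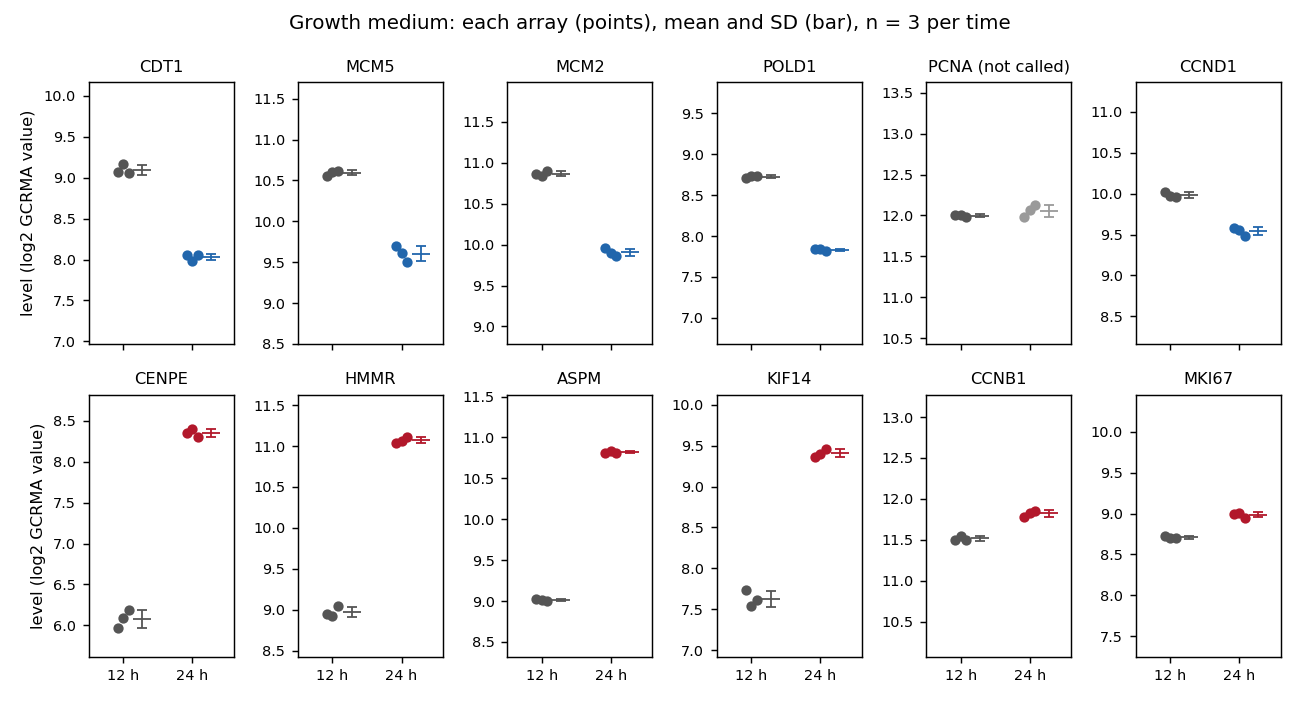
Level of 12 cell cycle genes on each growth medium array (points, log2 GCRMA value) at 12 and 24 h, with the mean and SD of 3 arrays beside them; every panel spans the same range of log2 units. CDT1, MCM5, MCM2, POLD1 and CCND1 are lower at 24 h, PCNA overlaps between the times, and CENPE, HMMR, ASPM, KIF14, CCNB1 and MKI67 are higher.

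Kinesins are the motors that walk on microtubules. Of 33 tested, 15 rose (45.5%, against 29.4% of all genes), 10 fell (30.3%, against 40.5%) and 8 were not called. Beside CENPE, which belongs to this superfamily, KIF20B, KIF18A and KIF14 above and KIF15 (1.20) rose, all of which act on the spindle or in cytokinesis.

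G1 regulators went both ways. Of 16 tested, 6 rose and 5 fell, a balance that turned to 6 rises and 8 falls under quantile normalisation. Cyclin D1 (CCND1), which carries growth factor signals into G1, went from 10.02, 9.97 and 9.96 to 9.58, 9.55 and 9.49 (change -0.44 ± 0.05, adjusted p = 8.2e-06). Cyclin D3 (CCND3) fell by 0.77, and their partner kinase CDK6 rose by 0.77. Of the CDK inhibitors, CDKN1A (p21) went from 10.47, 10.48 and 10.46 to 10.11, 10.05 and 9.89 (change -0.45), while CDKN1B (p27) read 9.96, 10.03 and 9.96, then 9.97, 10.12 and 10.12 (change 0.09, adjusted p = 0.44). The 12 and 24 h arrays were apart for p21 and overlapped for p27, which the class term called lower (-0.31, adjusted p = 0.018). The retinoblastoma relative RBL2 rose by 0.73 and RB1 itself by 0.77, and the class term took RB1 to -0.17.

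The promoters of these groups differed in their letters. The 250 bases before each start were searched on both strands for the CHR element TTTGAA, the CCAAT box CCAAT and the E2F core GCGGGAA, in RefSeq promoters of the build GRCh38.p14. TTTGAA was in 13 of the 24 promoters (54.2%) of mitosis genes that rose, in 0 of the 24 of replication genes that fell, and in 13.6% of all 27305 promoters (8.48% of those of tested genes). CCAAT was in 20 of 24 (83.3%), in 13 of 24 (54.2%) and in 33.0% of all promoters. GCGGGAA was in 0 of 24, in 6 of 24 (25.0%) and in 5.59% (8.86% of tested genes). The motifs went with the lists and not clearly with the calls: over all tested members, whether called or not, TTTGAA was in 16 of 32 mitosis promoters and GCGGGAA in 13 of 37 replication promoters (35.1%), a larger share than among those that fell. A match is a run of letters and not a site shown to be bound. The windows of CENPE and MCM2 hold none of the 3 motifs. The examples below were chosen with the genes of 1 chromosome left out. They are the 2 mitosis genes with the largest rise and a CHR match among the rest. The others are the 2 replication genes with the largest fall and an E2F match among the rest. Capitals mark the motifs on either strand.
HMMR: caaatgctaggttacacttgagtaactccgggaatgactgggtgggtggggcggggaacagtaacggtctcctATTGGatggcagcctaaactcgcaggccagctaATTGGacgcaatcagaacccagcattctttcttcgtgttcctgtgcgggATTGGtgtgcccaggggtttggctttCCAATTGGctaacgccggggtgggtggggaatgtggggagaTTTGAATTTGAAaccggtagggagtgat
ASPM: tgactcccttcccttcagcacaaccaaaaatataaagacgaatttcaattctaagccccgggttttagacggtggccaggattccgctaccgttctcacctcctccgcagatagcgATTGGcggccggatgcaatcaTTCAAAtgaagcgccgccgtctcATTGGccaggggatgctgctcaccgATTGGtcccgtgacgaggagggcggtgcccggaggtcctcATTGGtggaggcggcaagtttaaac
CDT1: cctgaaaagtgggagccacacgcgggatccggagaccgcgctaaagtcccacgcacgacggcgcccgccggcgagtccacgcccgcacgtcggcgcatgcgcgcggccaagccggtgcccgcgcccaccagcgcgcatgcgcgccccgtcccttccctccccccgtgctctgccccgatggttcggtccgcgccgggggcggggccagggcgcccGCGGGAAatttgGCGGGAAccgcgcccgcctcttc
MCM7: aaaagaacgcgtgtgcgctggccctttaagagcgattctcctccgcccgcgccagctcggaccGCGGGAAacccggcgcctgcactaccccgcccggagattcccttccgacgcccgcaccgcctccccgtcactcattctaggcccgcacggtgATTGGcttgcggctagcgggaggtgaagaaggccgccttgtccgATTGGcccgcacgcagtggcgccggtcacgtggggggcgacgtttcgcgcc
The HMMR window (chr5:163460382-163460631, plus strand) holds TTTGAA 2 times, side by side just before the start, and CCAAT 5 times, 2 of them overlapping. The ASPM window (chr1:197146670-197146919, minus strand) holds TTTGAA 1 time and CCAAT 4 times. In the CDT1 window (chr16:88803539-88803788, plus strand) GCGGGAA occurs 2 times near the start, and there is no CCAAT. The MCM7 window (chr7:100101398-100101647, minus strand) has GCGGGAA 1 time and CCAAT 2 times.

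NF-kappaB genes and the cytokines they control mostly fell. NF-kappaB is a family of factors that, once freed from its inhibitors, switches on inflammatory genes, its own subunits and its own inhibitors. Of 26 genes tested, 15 fell (57.7%), 4 rose and 7 were not called, with a median of -0.45. The falls and rises were 10 and 6 with the class term, and 3 and 4 when a change beyond 1.5-fold was required. These genes are short (median length 7.9 kb), and among all tested genes up to 8.41 kb long 55.7% fell. The part of length in these falls was not tested. The neutrophil chemokine CXCL1 read 9.65, 9.61 and 9.61 at 12 h and 8.66, 8.65 and 8.65 at 24 h (change -0.97 ± 0.05, 1.96-fold lower, adjusted p = 4.6e-08). CXCL8, also known as interleukin 8, read 7.53, 7.54 and 7.42, then 6.54, 6.68 and 6.88 (change -0.79 ± 0.08). IL6 went from 8.83, 8.93 and 8.87 to 8.28, 8.15 and 8.25 (change -0.65 ± 0.11, adjusted p = 0.00032). None overlapped between the times, but IL6 was not called with the class term (-0.25, adjusted p = 0.18). CXCL1, CXCL2, CXCL3 and CXCL8 fell by 0.63 to 0.97. Of the 5 NF-kappaB subunits 4 fell, RELB most (-0.97), while REL rose from 5.41, 5.15 and 5.29 to 6.50, 6.57 and 6.40 (change 1.21 ± 0.08). The chemokine CCL5 rose too (0.95), and 3 of 4 inhibitor proteins of the IkappaB type fell; these subgroups were picked out after the values were seen.

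Immediate early transcription factors, which serum induces within minutes, were lower at 24 h. Of 22 tested, 14 fell (63.6%), 3 rose and 5 were not called (median -0.30), and 11 fell and 1 rose with the class term. Their median length was 5.31 kb, and among all tested genes up to 8.41 kb long 55.7% fell. The part of length was not tested. The AP-1 partner MAFF went from 10.47, 10.43 and 10.42 to 9.61, 9.58 and 9.58 (change -0.85 ± 0.04), KLF2 fell by 0.78 and JUNB by 0.70. EGR1 went the other way, from 4.81, 4.61 and 4.75 to 5.48, 5.37 and 5.11 (change 0.60 ± 0.11), a rise that its 2 further probe sets did not show as called and that was lost with the class term (adjusted p = 0.079). FOS lay between 3.52 and 4.05 on the GM arrays and was not tested.

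ERK kinases pass growth factor signals to the nucleus and induce their own brakes, the DUSP phosphatases and the Sprouty and Spred proteins. Of 21 ligands and feedback genes, 9 fell, 4 rose and 8 were not called, against 4 falls and 1 rise with the class term and 14 falls and 0 rises under quantile normalisation. The rises were 1 without GM replicate 2 or 3 at 12 h or replicate 3 at 24 h, and 2 without replicate 2 at 24 h. The phosphatase DUSP4 changed most, from 8.10, 8.07 and 8.13 to 7.09, 7.25 and 7.08 (change -0.96 ± 0.11, adjusted p = 1e-05). All its 24 h arrays were lower. DUSP6, a phosphatase that acts on ERK, read 8.78, 8.73 and 8.72, then 8.85, 8.99 and 9.15 (change 0.25 ± 0.09, adjusted p = 0.02). Falls in DUSP14 (-0.42), the ERK-responsive factors ETV4 (-0.41) and ETV5 (-0.35), the receptor EPHA2 (-0.41), DUSP7 (-0.33), DUSP5 (-0.29) and DUSP1 (-0.25) were called, and of these DUSP14 alone kept its call with the class term. SPRED3 fell by 0.16 on overlapping arrays (adjusted p = 0.04987), a call also lost with that term. SPRED1 (0.35), SPRY2 (0.15) and SPRED2 (0.12) rose. Neither these 3 nor DUSP6 were called with the class term or under quantile normalisation. The EGF receptor ligands HBEGF (-0.18), EREG (0.30) and TGFA (-0.10) were not called, EREG being called lower with the class term (-0.95). DUSP10 (-0.18), DUSP16 (0.01), SPRY1 (-0.10), SPRY4 (-0.22) and PHLDA1 (-0.01) were not called either.

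Most HLA class I and peptide-loading genes fell. Of 16 tested, 11 fell (68.8%) and 3 rose (median -0.36). Only 1 rose without GM replicate 2 at 12 h, replicate 2 at 24 h or replicate 3 at 24 h. None was called when a change beyond 1.5-fold was required. Their median length was 6.25 kb, and among all tested genes up to 8.41 kb long 55.7% fell. The part of length was not tested. The falls were led by PSMB8 (-0.80) and PSMB9 (-0.67), subunits of the immunoproteasome, and HLA-E (-0.65). HLA-E read 11.15, 11.13 and 11.12 at 12 h and 10.56, 10.47 and 10.40 at 24 h. The 5 heavy chain genes tested fell by 0.43 to 0.65, though their probe sets may bind the transcripts of related HLA genes. The peptide trimmer ERAP2 rose by 0.69, was not called under quantile normalisation (adjusted p = 0.058) and was at -0.50 with the class term. Under quantile normalisation none of the list rose. Interferon-stimulated genes were split, 10 rises to 10 falls of 23, and the balance turned with the scaling. Among them TRIM22 rose (0.98), while the interferon regulatory factors IRF1 (-0.84) and IRF9 (-0.82) and IFI35 (-0.85) fell.

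Genes of growth control by contact and matrix were mixed. Of 23 Hippo and YAP genes, which couple cell density and tension to growth, 12 rose and 8 fell, against 11 and 2 with the class term. MOB1B, an activator of the pathway's kinase, rose from 7.12, 7.31 and 7.05 to 8.38, 8.40 and 8.61 (change 1.30 ± 0.15), and the transcription factor TEAD1 from 9.87, 9.93 and 9.88 to 10.88, 10.86 and 10.87 (change 0.98 ± 0.05). Both were higher on all 24 h arrays. The YAP target ANKRD1 rose (0.92) and TEAD2 fell (-0.67), the latter not with the class term. The best known YAP targets did not pass the test: CCN1 read 12.20, 12.16 and 12.16, then 12.17, 12.25 and 12.26 (change 0.06, adjusted p = 0.55), and CCN2 read 8.33, 8.46 and 8.44, then 8.61, 8.55 and 8.52 (change 0.15, adjusted p = 0.080).

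TGF-beta and BMP genes stood at 11 rises and 11 falls of 30, or 10 and 13 under quantile normalisation. The repressor SKIL (1.16), the receptor BMPR2 (0.99) and SMAD5 (0.78) rose and ID1 (-0.79) fell. Among 31 collagens and other matrix genes 12 fell (38.7%, against 40.5% of all genes) and 7 rose (22.6%, against 29.4%), with tenascin C (TNC, -0.97), the collagen VI chains COL6A3 (-0.87) and COL6A1 (-0.72) and the crosslinking enzyme LOXL1 (-0.64) lower. COL1A1 read 6.99, 7.17 and 7.01 at 12 h and 6.54, 6.50 and 6.28 at 24 h (adjusted p = 0.0027). With the class term the matrix rises shrank from 7 to 1, and without GM replicate 2 at 12 h to 4. Proteases and inhibitors of the matrix fell in 8 of 14 cases and rose in 4: the urokinase receptor PLAUR (-0.75), TIMP1 (-0.65) and TIMP3 (-0.56) fell, and ADAM9 rose by 0.63 but stood at -0.16 with the class term, under which none of the list rose.

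**Figure D3:**
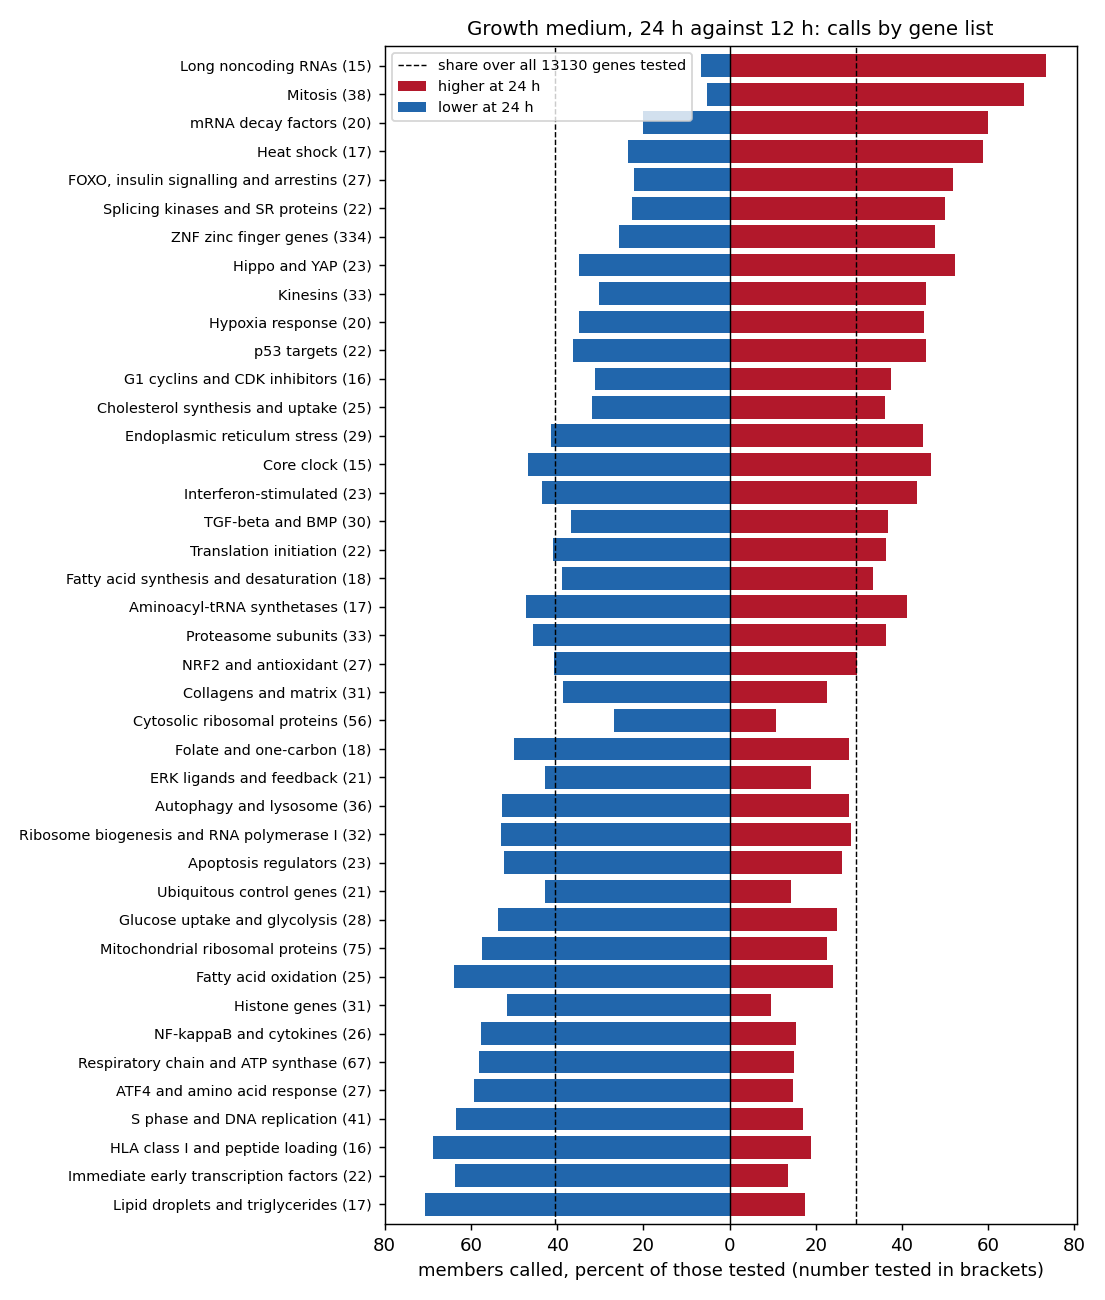
Share of the tested members of each gene list called higher (red, right) or lower (blue, left) at 24 h than at 12 h in growth medium, for lists with at least 15 members tested; dashed lines mark the shares over all 13130 genes, 29.4% and 40.5%. Long noncoding RNAs and mitosis stand at the top with 73.3% and 68.4% higher, and lipid droplets, immediate early factors and HLA class I at the bottom with 70.6%, 63.6% and 68.8% lower.

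Sterol genes rose furthest among the lipid lists. Cholesterol synthesis and uptake, which the factor SREBP2 raises when sterol is short, held 9 rises and 8 falls among 25 genes, and these were 9 and 9 after centring each array, 8 and 10 under quantile normalisation and 10 and 4 with the class term. The rises were large. STARD4, a sterol carrier, went from 7.23, 7.35 and 7.25 to 8.67, 8.73 and 8.59 (change 1.39 ± 0.08, 2.61-fold, adjusted p = 6.2e-08). HMGCS1, the synthase before the step that statins block, read 6.44, 6.13 and 6.41, then 7.31, 7.20 and 7.38 (change 0.97 ± 0.09). Their 24 h arrays were clear of the 12 h ones. The isomerase IDI1 (1.03) and INSIG1 (0.94), the sterol-regulated anchor that retains SREBP, rose with them. Fatty acid synthesis and desaturation stood at 6 rises and 7 falls of 18, against 6 and 5 after centring and 6 and 3 with the class term. The desaturase SCD read 8.56, 8.55 and 8.53, then 9.03, 9.0 and 9.05 (change 0.48 ± 0.04), the elongase ELOVL7 rose (0.51) and the citrate carrier SLC25A1 fell (-0.57). ACSL4 rose by 0.75 on widely spread arrays (8.79, 9.02 and 9.33 at 24 h), was not called under quantile normalisation and stood at -0.50 with the class term.

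Genes for storing and burning fat mostly fell. Of 17 lipid droplet and triglyceride genes, 12 fell and 3 rose (median -0.35), with the droplet coat PLIN3 (-0.58), the lipase inhibitor G0S2 (-0.61) and the monoglyceride lipase MGLL (-0.67) lower and the phosphatidate phosphatase LPIN1 (0.79) higher. PLIN3 read 11.87, 11.88 and 11.84 at 12 h and 11.29, 11.27 and 11.28 at 24 h. Of 25 fatty acid oxidation genes, 16 fell and 6 rose (median -0.25). The peroxisomal oxidase ACOX2 (-0.91), ECI1 (-0.82) and the electron carrier subunit ETFB (-0.62) fell and the dehydrogenase ACADM (0.73) rose. With the class term 5 droplet genes fell and 4 rose, and 6 oxidation genes fell and 4 rose. ACOX2, ETFB and ACADM were no longer called with it. No gene of either list was called when a change beyond 1.5-fold was required.

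Of 28 genes of glucose uptake and glycolysis, 15 fell (53.6%, against 40.5% of all genes) and 7 rose (25.0%, against 29.4%), with a median of -0.26. The pyruvate kinase PKM went from 10.01, 10.03 and 10.01 to 9.26, 9.22 and 9.11 (change -0.82 ± 0.06), although its other probe set was not called. GPI (-0.65) and the phosphofructokinases PFKL (-0.64) and PFKM (-0.60) fell. The transporter SLC2A1 (GLUT1) read 7.40, 7.36 and 7.44, then 6.80, 6.84 and 6.82 (change -0.58 ± 0.06, adjusted p = 4.4e-06), with a clear gap between times. Hypoxia response genes were mixed, 9 rises to 7 falls of 20 and 8 to 4 with the class term. HIF1A itself rose (0.71) with the mitophagy receptor BNIP3L (0.88), while NDRG1 (-0.70) and ANGPTL4 (-0.61) fell, the last not with the class term. VEGFA, the classical target, read 7.95, 7.90 and 7.87, then 7.81, 7.99 and 7.96 (adjusted p = 0.86).

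FOXO factors act when insulin and growth factor signals are low. Of 27 FOXO, insulin signalling and arrestin genes, 14 rose and 6 fell (median 0.17), against 9 and 4 with the class term. The arrestin TXNIP, which lowers glucose uptake, rose from 8.10, 7.95 and 8.03 to 8.83, 8.81 and 8.71 (change 0.76 ± 0.07, 1.69-fold, adjusted p = 1.7e-06). Its relative ARRDC4 rose by 0.95, and SESN2 (-0.74) and TSC2 (-0.72) fell, TSC2 not with the class term. The 12 and 24 h values were apart for all 4.

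Stress lists did not move as a block. Amino acid response genes under ATF4 mostly fell, 16 to 4 of 27 (median -0.39), and 11 to 4 with the class term. Requiring a change beyond 1.5-fold left 0 falls and 1 rise. The kinase-like TRIB3 (-0.78) and the transporter SLC1A4 (-0.75) were lower and the cystine transporter SLC7A11 (1.06) higher. Asparagine synthetase (ASNS) read 10.70, 10.69 and 10.74, then 10.73, 10.73 and 10.74 (adjusted p = 0.66), while DDIT3 (CHOP) rose from 7.77, 7.88 and 7.73 to 8.34, 8.34 and 8.16 (change 0.48 ± 0.09). Of 29 endoplasmic reticulum stress genes 13 rose and 12 fell, equal at 12 under quantile normalisation, with DNAJC10 (0.85), ERO1B (0.83) and the sensor ATF6 (0.65) higher and SDF2L1 (-0.84) lower. The main chaperone HSPA5 (BiP) read 12.02, 12.00 and 11.97, then 11.95, 11.99 and 11.99 (change -0.02, adjusted p = 0.76), with overlapping arrays. Heat shock genes rose in 10 and fell in 4 of 17 cases (6 and 2 with the class term), led by HSPA4L (1.25) and HSP90AA1, which went from 12.25, 12.12 and 12.01 to 12.94, 12.95 and 13.07 (change 0.86 ± 0.08). CHORDC1 (0.77) and DNAJB4 (0.60) rose on spread arrays and were not called with the class term.

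Antioxidant genes of the NRF2 list stood at 8 rises and 11 falls of 27, 9 and 8 with the class term. After PRDX2 and NQO1 the heme oxygenase HMOX1 fell most, from 9.31, 9.43 and 9.46 to 8.52, 8.57 and 8.33 (change -0.92 ± 0.08). Of 14 metallothionein, zinc and iron genes 10 were not called, 2 rose and 2 fell, with 1 rise without GM replicate 2 at 12 h or replicate 3 at 24 h and 4 falls without HFM replicate 1 at 12 h. The zinc exporter SLC30A1 rose (0.99), the transferrin receptor TFRC fell (-0.76), and the ferritin light chain FTL (-0.15) was lower and SLC39A10 (0.15) higher, neither called with the class term. Among 18 folate and one-carbon genes 9 fell and 5 rose. The purine synthesis enzyme PFAS (-0.74), the folate carrier SLC19A1 (-0.71) and the mitochondrial serine enzyme SHMT2 (-0.70) were lower, and the folate receptor FOLR1 (-1.0 ± 0.18) spread widely at 24 h (6.01, 6.13 and 6.83).

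Of 22 p53 targets, 10 rose and 8 fell; the falls were 5 without GM replicate 2 at 24 h and 2 with the class term. RRM2B (0.98), ZMAT3 (0.89), TP53INP1 (0.84) and the p53 inhibitor MDM4 (0.84) rose. Apoptosis regulators fell in 12 of 23 cases (52.2%, against 40.5% of all genes) and rose in 6 (26.1%, against 29.4%). The pro-apoptotic BAK1 (-0.80), BIK (-0.71) and BAD (-0.70) were lower and the inhibitor BIRC2 (0.88) higher, with BAD not called under the class term. Autophagy and lysosome genes fell in 19 (52.8%) and rose in 10 (27.8%) of 36 cases. The autophagy receptor TAX1BP1 rose from 8.57, 8.72 and 8.64 to 9.96, 9.93 and 9.88 (change 1.28 ± 0.06), ATG12 rose (0.64), and ATG2A (-0.66) and the lysosomal master factor TFEB (-0.65) fell. With the class term 10 of the list fell and TFEB was not called.

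More mitochondrial genes fell than rose. Of 75 mitochondrial ribosomal proteins 43 fell (57.3%, against 40.5% of all genes) and 17 rose (22.7%, against 29.4%), with a median of -0.24. Of 67 genes of the respiratory chain and ATP synthase 39 fell (58.2%) and 10 rose (14.9%), with a median of -0.20. The genes of both lists are short, with median lengths of 8.67 and 10.5 kb. Among all tested genes up to 8.41 kb long 55.7% fell, and among those from 8.41 to 19.6 kb 52.0% did. The part of length in these falls was not tested. MRPL54 went from 10.30, 10.29 and 10.32 to 9.30, 9.32 and 9.27 (change -1.01 ± 0.08, 2.01-fold lower, adjusted p = 7.6e-07). MRPS18A (-0.92), MRPL55 (-0.90) and MRPL12 (-0.87) followed. The complex I subunit NDUFB7 read 10.62, 10.60 and 10.59, then 9.66, 9.69 and 9.53 (change -0.97 ± 0.08). ATP5F1D (-0.84) of the ATP synthase, NDUFS7 (-0.80) and UQCRC1 (-0.77) of complexes I and III fell as well. No 24 h array reached the 12 h range for any of these 8. With the class term 29 of the ribosomal genes fell and 22 rose, and 20 of the respiratory genes fell and 15 rose.

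Lists of protein synthesis and breakdown held rises and falls. Ribosome biogenesis genes fell in 17 and rose in 9 of 32 cases, 9 and 10 with the class term. The U3 snoRNP protein RRP9 fell (-0.94), and TAF1D (1.38) of the RNA polymerase I machinery, NOP58 (1.00) and WDR75 (0.95) rose. NPM1, the abundant nucleolar chaperone, read 13.21, 13.26 and 13.16, then 13.33, 13.36 and 13.43 (change 0.16, adjusted p = 0.12), and was called lower with the class term (-0.20, adjusted p = 0.030). Of 56 cytosolic ribosomal proteins 35 were not called, 15 fell and 6 rose, with a median of -0.04, and 10 rose without HFM replicate 1 at 12 h. RPS24 rose by 0.42 and RPL10L (-0.37), RPL36 (-0.34) and RPL39L (-0.33) fell, the last not with the class term, and probe sets of this family may also bind transcripts of its many pseudogenes. Translation initiation factors stood at 8 rises (36.4%, against 29.4% of all genes) to 9 falls (40.9%, against 40.5%) of 22, turned to 7 and 6 by the class term. EIF2S2 (1.09), EIF5B (0.85) and the cap-binding EIF4E (0.71) rose and EIF6 (-0.80) fell. Of 17 aminoacyl-tRNA synthetases 7 rose and 8 fell, equal at 8 after centring and 8 and 4 with the class term, with FARSA (-0.93), VARS1 (-0.86) and HARS1 (-0.75) lower and NARS1 (0.64) higher. Proteasome subunits fell in 15 and rose in 12 of 33 cases and, with the class term, in 7 and 16. Next to PSMB8 and PSMB9, PSMB10 (-0.78), the third immunoproteasome subunit, was lower, and the ATPase PSMC6 (0.72) was higher.

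Lists of nuclear RNAs and RNA-binding factors held more rises than falls. Of 15 selected long noncoding RNAs, 11 rose and 1 fell (median 0.50). The wider class did not lean this way: of 736 long noncoding RNAs tested, 175 rose and 167 fell. They made up 5.61% of all tested genes, 4.53% of those that rose and 3.14% of those that fell. MIR100HG rose from 6.68, 6.54 and 6.62 to 8.21, 8.28 and 8.20 (change 1.62 ± 0.05, 3.06-fold, adjusted p = 2.6e-09). FTX (1.5) and JPX (1.33) rose by nearly as much. MALAT1, an abundant RNA of nuclear speckles, went from 10.04, 10.21 and 10.01 to 11.26, 11.33 and 11.83 (change 1.39 ± 0.30, adjusted p = 0.0015). Its times did not overlap, but the class term took its change to -0.02, and of its 11 further probe sets 9 rose and 1 fell. Splicing kinases and SR proteins rose in 11 and fell in 5 of 22 cases. The kinase CLK1, which phosphorylates SR proteins, went from 6.10, 6.07 and 5.83 to 7.68, 7.72 and 7.82 (change 1.74 ± 0.08, 3.34-fold), with PNISR (1.58), CLK4 (1.39) and LUC7L3 (1.15) beside it. Factors of mRNA decay rose in 12 and fell in 4 of 20 cases. The decapping enzyme DCP2 (1.10), the exonuclease XRN1 (0.99) and the RNA-binding proteins RC3H1 (0.91) and RC3H2 (0.78) were higher. All 6 deadenylase subunits tested (CCR4-NOT and PAN2-PAN3, a group picked out after the values were seen) rose, by 0.20 to 0.65.

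The ZNF genes, a large family that holds most of the KRAB zinc finger repressors, rose in 159 and fell in 86 of 334 cases (47.6% and 25.7%, against 29.4% and 40.5% of all genes). Of them 45 rose at least 2-fold and 2 fell as much. ZNF700 went from 5.16, 5.14 and 5.12 to 6.88, 6.89 and 6.95 (change 1.76 ± 0.06, 3.39-fold), ZNF91 rose by 1.67 and ZNF25 by 1.59. Only 43 fell with the class term, and 157 rose.

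Histone genes fell in 16 (51.6%) and rose in 3 of 31 cases (median -0.21), the falls being 9 with the class term. Their median length was 0.731 kb, and among all tested genes up to 8.41 kb long 55.7% fell. The part of length was not tested. H2AC17 showed the largest fall of all tested genes, from 5.85, 6.0 and 6.10 to 4.14, 4.24 and 4.42 (change -1.72 ± 0.12, 3.29-fold lower), at a level below the log2 6 required of the largest changes above. The linker histone H1-4 fell by 0.81, to below log2 4, and H2AC6 (0.89) and H2BC4 (0.87) rose. Most replication-dependent histone transcripts lack a poly(A) tail, and the labels do not say which primer made the cRNA here.

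The circadian clock is a loop in which CLOCK and BMAL1 switch on the PER, CRY and REV-ERB repressors that act back on them, and serum can set its phase. Of its 15 genes tested, 7 rose, 7 fell and 1 was not called, against 6 and 7 after centring and 6 and 3 with the class term. NR1D2 (REV-ERB beta) rose from 6.61, 6.56 and 6.57 to 7.26, 7.51 and 7.60 (change 0.88 ± 0.11, 1.84-fold, adjusted p = 2.8e-05). CLOCK went from 7.10, 7.01 and 7.06 to 7.81, 7.82 and 7.76 (change 0.74 ± 0.05), and BMAL1 from 6.94, 6.89 and 6.95 to 7.38, 7.35 and 7.13 (change 0.36 ± 0.09). PER2 fell from 5.95, 5.94 and 5.95 to 5.50, 5.71 and 5.53 (change -0.37 ± 0.09, adjusted p = 0.0029). The arrays of the times were apart for all 4. PER3 (0.39), CRY1 (0.35), BMAL2 (0.35) and BHLHE40 (0.21) rose, and the kinases CSNK1D (-0.61) and CSNK1E (-0.42), CRY2 (-0.54), DBP (-0.54), TEF (-0.37) and NPAS2 (-0.32) fell. NFIL3 was not called (0.06). PER2, PER3, CSNK1D, CSNK1E, DBP and TEF were not called with the class term, and CRY1, not called under quantile normalisation either, stood at -0.26 there. With only 2 times, these values say nothing of a period.

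Genes often used as constant references were not all constant. Of 21 tested, 9 fell (42.9%, against 40.5% of all genes) and 3 rose (14.3%, against 29.4%). ACTB read 13.23, 13.21 and 13.21, then 13.22, 13.18 and 13.21 (change -0.01 ± 0.04, adjusted p = 0.82), and GAPDH read 13.68, 13.67 and 13.69, then 13.64, 13.61 and 13.63 (change -0.05 ± 0.04, adjusted p = 0.30). GUSB (-0.45) and CHMP2A (-0.52) fell, GUSB not with the class term.

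The drift in GM was set against the same interval in HFM, with which it shares no array. Each change starts from the 12 h level of its own medium, and these levels were not alike. The 12 h arrays of the 2 media correlated at 0.980, against 0.998 within GM at 12 h. Opposite directions of change are therefore not a comparison of levels between the media. In HFM 8290 genes (63.1%) changed, 2637 (20.1%) up and 5653 (43.1%) down. Of the genes that rose in GM, 42.4% rose and 28.9% fell in HFM; these shared rises were 62.0% of those in HFM. Of the genes that fell in GM, 60.8% fell and 7.2% rose in HFM, and the shared falls were 57.2% of those in HFM. Of the 55 genes that fell at least 2-fold in GM, 50 also fell in HFM. Among the 506 that rose at least 2-fold in GM, 319 (63.0%) rose in HFM, 81 (16.0%) fell and 106 were not called. The difference between the time effects was tested directly and was called for 6931 genes (52.8%), 2551 (19.4%) with the higher effect in HFM and 4380 (33.4%) with the lower.

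Mitosis genes rose in GM and mostly fell in HFM. Of 38, 26 rose in GM, whereas in HFM 2 rose and 22 fell, and the time effect was lower in HFM for 33 and higher for 0. CENPE changed by 2.27 in GM and by -0.15 in HFM (difference -2.42, adjusted p = 8.9e-09), HMMR by 2.10 and -0.33, and ASPM by 1.81 and -0.74. CCNB1 changed by 0.31 and -0.48 and MKI67 by 0.27 and -0.68. Replication genes fell in both media, 26 of 41 in GM and 41 of 41 in HFM, and their effect was lower in HFM for 32. The leading falls had no called difference, with CDT1 at -1.07 and -0.99 (adjusted p of the difference 0.38) and MCM2 at -0.96 and -0.87 (adjusted p = 0.34), while POLD1 fell further in HFM (-1.45, adjusted p of the difference 0.00012) and PCNA, not called in GM, fell in HFM (-0.65, adjusted p of the difference 0.0024).

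**Figure D4:**
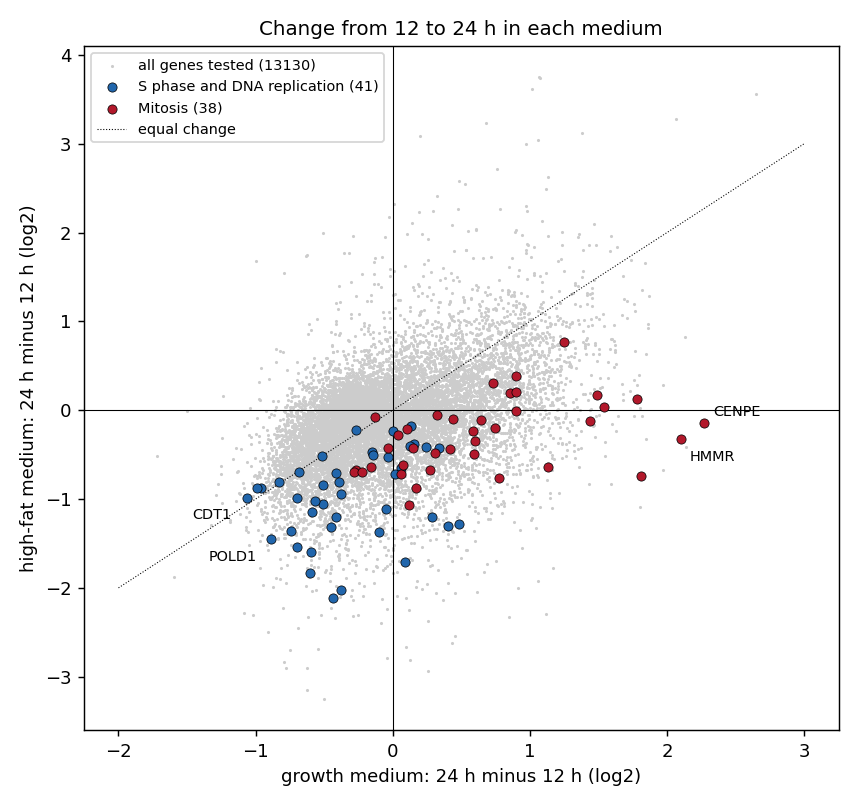
Change from 12 to 24 h in high-fat medium (y axis, log2) against that in growth medium (x axis, log2) for all 13130 genes (grey), 41 replication genes (blue) and 38 mitosis genes (red); the dotted line marks equal change. Most red points lie right of 0 and below the line, with 26 rises in growth medium and 22 falls in high-fat medium, and blue points lie below 0 on the y axis, where all 41 fell.

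Several lists that fell in GM rose in HFM. Immediate early factors fell in 14 of 22 cases in GM and rose in 16 in HFM, with the difference called for 15 as higher in HFM. MAFF changed by -0.85 in GM and 0.69 in HFM (adjusted p of the difference 8.9e-09). HLA class I genes fell in 11 of 16 cases in GM and rose in 10 in HFM, the difference being called for 12. CXCL8 changed by -0.79 and 1.54 (difference 2.34, adjusted p = 4.2e-08), DUSP5 by -0.29 and 1.96 and DUSP4 by -0.96 and 0.48. The effect was higher in HFM for 22 of 29 endoplasmic reticulum stress genes, HSPA5 moving by -0.02 and 1.51 and DDIT3 by 0.48 and 2.58. Other falls were shared without a called difference: NQO1 changed by -1.33 and -1.29 (adjusted p of the difference 0.77), UPP1 by -1.19 and -1.24 (0.81) and SLC2A1 by -0.58 and -0.55 (0.81). TXNIP rose in either medium, by 0.76 in GM and 2.72 in HFM (adjusted p of the difference 3.4e-08), and ZNF genes rose in 159 cases in GM and fell in 183 in HFM.

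Rises were more frequent among long genes and falls among short ones. Gene length here is the span from start to end in RefSeq (GRCh38.p14), introns included. The median length was 51.6 kb for the genes that rose, 17.8 kb for those that fell and 27.9 kb for all tested, and 64.0 against 13.7 kb for the 2-fold changes. When genes were split into 5 equal groups by length, in the group up to 8.41 kb long the median change was -0.27, with 11.1% higher and 55.7% lower. In the group from 87.0 kb up it was 0.15, with 47.3% higher and 22.3% lower. Across 13112 genes, which are not independent replicates and share the same arrays, Spearman's rho between length and change was 0.336 in GM and 0.112 in HFM. The median of mitosis genes lay above that of all genes in each of the 5 groups, but the longest group held only 1 of them. The shortest held 5, of which 2 rose, with a median of 0.06. The 10 from 8.41 to 19.6 kb had a median change of 0.14 against -0.25 for all genes there. The 13 from 39.6 to 87.0 kb had 0.90 against 0.04. Replication genes gave no such single pattern. The 16 from 8.41 to 19.6 kb, the largest set of them, had -0.18 against -0.25 and 8 of them fell, and the 3 from 87.0 kb up had 0.12 against 0.15. The 11 from 19.6 to 39.6 kb had -0.57 against -0.13, the 9 from 39.6 to 87.0 kb -0.45 against 0.04, and the 2 shortest -0.75 against -0.27. The ACTB 3′ to 5′ gap and the ribosomal controls moved over the same interval, and their part was not tested. Length showed more of a trend than promoter GC content, whose rho with the GM change was -0.104 over 10590 genes.

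**Figure D5:**
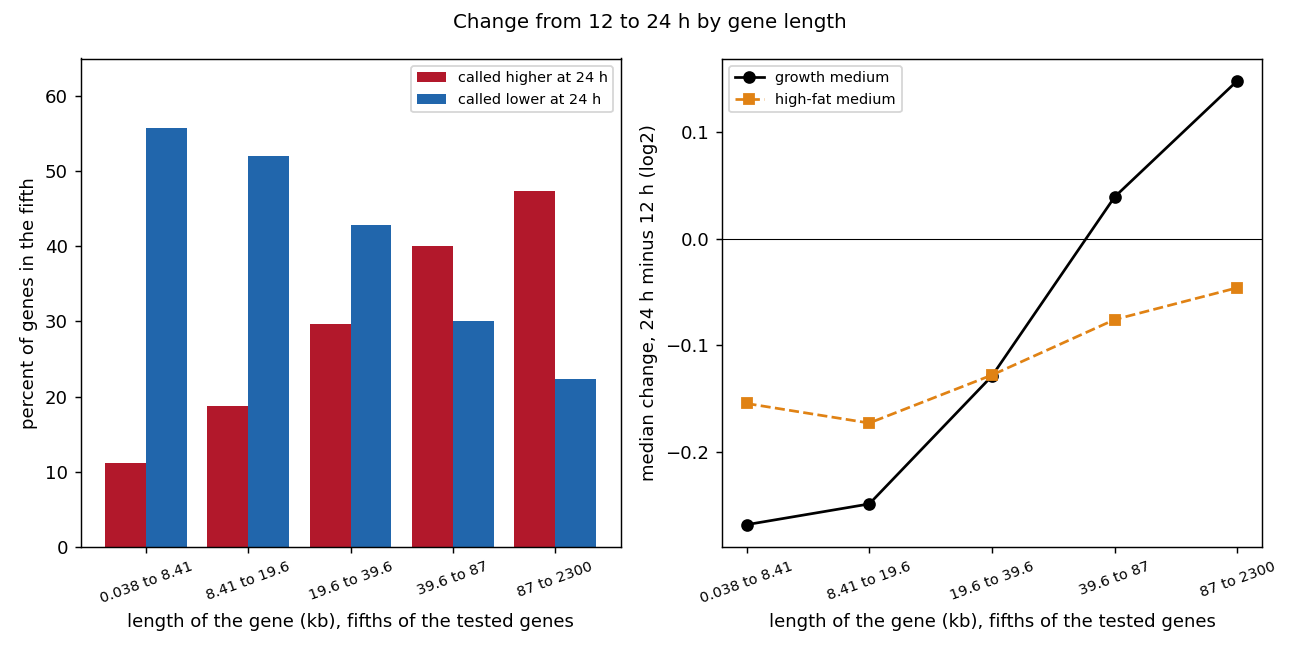
Left, percent of genes called higher (red) or lower (blue) at 24 h in growth medium in each of 5 equal groups by gene length (kb); right, the median change (log2) of each group in growth medium (circles) and high-fat medium (squares). The share of rises climbs from 11.1% in the shortest to 47.3% in the longest group, and the median in growth medium from -0.27 to 0.15, against -0.15 to -0.05 in high-fat medium.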

How the data were processed

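RNA of 12 samples, 3 for each medium and time, was measured on Affymetrix arrays of 54675 probe sets. The authors deposited log2 values. GCRMA is the tool that the submitters' processing notes name, without a version. GCRMA adjusts background by probe sequence and equalises the distributions of arrays, so a change shared by most genes can be removed. Of the probe sets 41097 had 1 gene symbol, 1801 several and 11777 none. For each of 19775 genes the probe set with the highest mean over the 12 arrays was kept, and the 13130 genes that reached log2 4 on at least 3 of the arrays entered the tests. The 4 groups were fitted together in limma 3.58.1 (R 4.3.3) with lmFit and eBayes, and p-values were adjusted by the Benjamini-Hochberg method over all tested genes. The call threshold was an adjusted p of 0.05. The number of arrays limits the precision. Data were simulated for GM 24 h against 12 h (13130 genes, 20 simulations, 200 genes changed). Of changes of 0.25 log2 units 24.7% were recovered, of 0.5 73.8% and of 1 97.8%, and 6% of calls were unchanged genes. Far more genes were called in GM (69.9%) than were changed in the simulation, so these rates may not carry over.

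Genes were named by rule: the 15 largest rises and falls with a mean of at least log2 6 in the higher group and no overlap of arrays, up to 4 called members of each of 48 gene lists with the largest change, a set of fixed names, and the 5 largest differences between media each way. The members and lists were chosen with earlier results of these data known. Some fixed names are not reported here. Replicate numbers did not pair samples. Each result was recomputed under 19 alternatives. The closing part gives those that moved the counts over all genes or turned the sign of a named gene. For the lists only some alternatives are given.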

Additional observations from a re-analysis of the deposited data

Results flagged for a closer look

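The change from 12 to 24 h differed between the media for 6931 genes by limma's test of the difference (adjusted p under 0.05). The values below are the HFM change minus the GM change on the log2 scale. The difference was most negative for ZNF804A (-3.42), TRMT10C (-3.18), HYLS1 (-3.05), EIF5 (-2.99) and FILIP1L (-2.94). It was most positive for SNORA72 (2.68), the folate receptor FOLR1 (2.68), RPS16P5 (2.67), LINC-PINT (2.60) and the histone H2BC21 (2.55). These are the 5 genes each way that the naming rule takes.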

How the results depend on the processing

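Requiring a change beyond 1.5-fold left 1092 genes called in GM, 874 higher and 218 lower, and 1280 for the difference between media. NF-kappaB genes then stood at 4 rises and 3 falls, and ATF4, apoptosis and autophagy genes at 1 rise and 0 falls each. HLA class I, lipid droplet and fatty acid oxidation genes held no call. Mitosis genes kept 12 rises and 0 falls, and replication genes 0 rises and 4 falls. Averaging all probe sets of a gene left 289 genes called and changed at least 2-fold. With the hybridisation control class as a term 3486 genes were lower, and the difference between media was called for 8292. Each of the 6 GM arrays and HFM replicate 1 at 12 h was left out in turn, and the other 5 HFM arrays were not. Calls then ranged from 8415 to 10120 (the highest without HFM replicate 1 at 12 h), rises from 3589 to 4227, falls from 4810 to 5893, 2-fold changes from 528 to 597 and differences between media from 6204 to 8159. The 3′ to 5′ gap of ACTB changed by 0.15 to 0.20 and that of GAPDH by 0.0015 to 0.022. A replicate block gave 9247 calls, 3880 higher and 5367 lower. Deviations of same-numbered samples correlated at -0.08, -0.06 and -0.16, so the numbers were not taken as pairs.

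Of 5050 values of named genes under the alternatives, 4759 stayed on their side of the threshold (with the same direction where called), 232 lost the call, 34 gained it and 25 turned sign. Values that turned sign and were called in at least 1 of the 2 fits are below, and the cause was not tested. Averaging probe sets took PHLDA1 to 0.15, SPRED2 to -0.042 and BHLHE40 to -0.046. Leaving out probe sets of the types that can bind several transcripts took RBM14 to 0.26 and MALAT1 to -0.44. The class term took RB1 to -0.17, ETV4 to 0.18, ERAP2 to -0.50, ADAM9 to -0.16, ACSL4 to -0.50, DNAJB4 to -0.23, MALAT1 to -0.023, CDKN1B to -0.31, PCNA to -0.45, NPM1 to -0.20, EREG to -0.95, ETV5 to 0.086, DUSP5 to 0.0047, SPRED1 to -0.19, CRY1 to -0.26, DBP to 0.048, CSNK1E to 0.054, AURKB to 0.021, BIRC5 to 0.056 and ESAM to 0.0017. In the simulation, with 200 of 13130 genes changed, 24.7% of changes of 0.25 log2 units were recovered. That rate may not hold for GM, where 69.9% of genes were called.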
